A study of Mus musculus with 12 samples.

Results

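Malat1 and the RNA-binding protein genes Sfpq, Rbm39, Luc7l2, Snrpd3 and Pabpc1 were followed in mouse bone marrow KSL cells after irradiation. The 6 genes were chosen by symbol from the probe sets that the authors' deposited table lists as changed. They hold 10 of the 451 probe sets of that table that were also among the 22626 with deposited values. Of the 10, 5 are for Rbm39 and 1 for each of the other genes. Only that table names genes here, so further probe sets of these 6 genes that changed less would carry no name, and every statement on a gene's level below is on its listed probe sets. The table lists probe sets that differed at least 2-fold between 550cGy and 0cGy arrays at an unadjusted p under 0.05, so the fall of these genes on the same arrays chose them and is given here as a description, without a test. KSL cells are the Kit+ Sca-1+ lineage-negative fraction of bone marrow, in which the hematopoietic stem cells are found. The 6 control arrays (0cGy) are of KSL cells from non-irradiated C57Bl/6 mice, and the 6 irradiated arrays (550cGy) are of KSL cells from C57Bl/6 mice given 550 cGy from a cesium irradiator, with mice of both groups raised to 10 weeks of age. The series' design text places the sort at day 14 after irradiation and asks how regenerating stem and progenitor cells differ from those at steady state. Whether each array stands for a separate mouse is not in the labels, and p-values therefore measure the spread between these arrays, which may be technical.

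A messenger RNA precursor loses its introns in the spliceosome, whose small nuclear ribonucleoproteins are built on rings of Sm proteins and are helped to their sites by proteins rich in arginine and serine, the SR proteins and their relatives. Many of these factors are stored in nuclear speckles, where the long noncoding RNA Malat1 also collects, while Sfpq belongs to the neighbouring paraspeckles. Once exported, the messenger RNA is carried by cytoplasmic poly(A)-binding protein, which guards its tail and promotes its translation. Blood stem and progenitor cells depend on this machinery, and genes of splicing factors are recurrently mutated in human myeloid neoplasms.

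Promoter windows of 5 of the 6 genes were found in RefSeq (GRCm38.p6), each running from 250 bases before to 50 bases after an annotated start, with 2 windows for Rbm39. Pabpc1 had no entry. Those of Malat1, Sfpq and Rbm39 (the upstream one) are shown as examples, and together they hold most of the motif matches among these genes. The Snrpd3 window and the downstream Rbm39 window, not shown, held at least as many matches as the upstream Rbm39 window. Capitals mark the CRE core TGACGT, the CCAAT box CCAAT and the YY1 core GCCATNTT, searched on both strands, and the lines run 5′ to 3′ along the gene.
Malat1 (chr19:5802623-5802922, minus strand): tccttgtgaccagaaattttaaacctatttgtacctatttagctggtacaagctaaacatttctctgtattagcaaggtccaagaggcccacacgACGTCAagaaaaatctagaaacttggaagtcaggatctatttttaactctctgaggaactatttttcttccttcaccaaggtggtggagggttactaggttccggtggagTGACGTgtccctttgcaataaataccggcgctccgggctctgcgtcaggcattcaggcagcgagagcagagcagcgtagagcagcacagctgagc
Sfpq (chr4:127021051-127021350, plus strand): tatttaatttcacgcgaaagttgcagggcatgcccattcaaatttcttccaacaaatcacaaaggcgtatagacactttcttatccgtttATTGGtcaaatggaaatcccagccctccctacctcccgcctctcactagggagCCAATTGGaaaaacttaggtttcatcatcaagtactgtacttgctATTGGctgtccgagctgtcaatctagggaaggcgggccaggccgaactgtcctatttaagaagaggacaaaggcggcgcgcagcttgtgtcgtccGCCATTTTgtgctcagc
Rbm39 (chr2:156180189-156180488, minus strand): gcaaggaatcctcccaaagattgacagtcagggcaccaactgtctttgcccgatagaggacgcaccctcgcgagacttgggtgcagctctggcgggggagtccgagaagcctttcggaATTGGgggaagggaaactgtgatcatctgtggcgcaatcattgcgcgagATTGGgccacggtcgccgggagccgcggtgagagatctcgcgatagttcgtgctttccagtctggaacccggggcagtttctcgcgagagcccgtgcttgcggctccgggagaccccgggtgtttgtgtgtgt
The Malat1 window held 2 CRE cores, which begin 155 and 45 bases ahead of the start, and no CCAAT box. The CRE core was present in 7.51% of 32817 promoter windows of the same length. The Sfpq window held 4 CCAAT matches, of which a pair on opposite strands overlaps, and a YY1 core 33 bases after the start. The upstream Rbm39 window held 2 CCAAT boxes, the Snrpd3 window 2 and the Luc7l2 window 1, while the downstream Rbm39 window held 2 YY1 cores. The Luc7l2 window (chr6:38555473-38555772, plus strand) and the Sfpq window lie inside their genes, which begin at bases 38551334 and 127020716. Each of these 2 windows therefore stands for a start inside the gene. A CCAAT box was present in 37.4% of all windows and a YY1 core in 6.04%. No TATA box (TATAAA), ETS core (CCGGAAG) or E-box (CACGTG) was found in the 6 windows of these genes, and a GC box (GGGCGG) was found only in that of Snrpd3. In the same order, these 4 motifs were present in 13.6%, 8.86%, 7.15% and 35.6% of all windows. A match is a string of letters and was not tested as a binding site.

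All 10 probe sets were lower in irradiated KSL cells, by 2.05-fold for Sfpq to 2.49-fold for the brightest Rbm39 probe set. Their log2 changes lay between -1.32 and -1.03 with a median of -1.11, against a median of 0.01 over all 22626 probe sets. In a limma fit over all probe sets, 10 of 10 were called lower at a Benjamini-Hochberg adjusted p under 0.05. This call was made for 5.47% of all probe sets as lower and for 11.3% in either direction. Nothing is read from that count, since the table was selected on the same contrast. All 6 irradiated arrays lay below all 6 control arrays in 8 of the 10, as in 2.8% of all probe sets. Near the limit of the authors' deposited table, the smallest fall inside was 2.0005-fold and the largest fall outside, in a probe set without a name here, was 1.999-fold. In these bulk RNA samples, fewer cells of a type and less RNA per cell cannot be told apart.

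**Figure D1:**
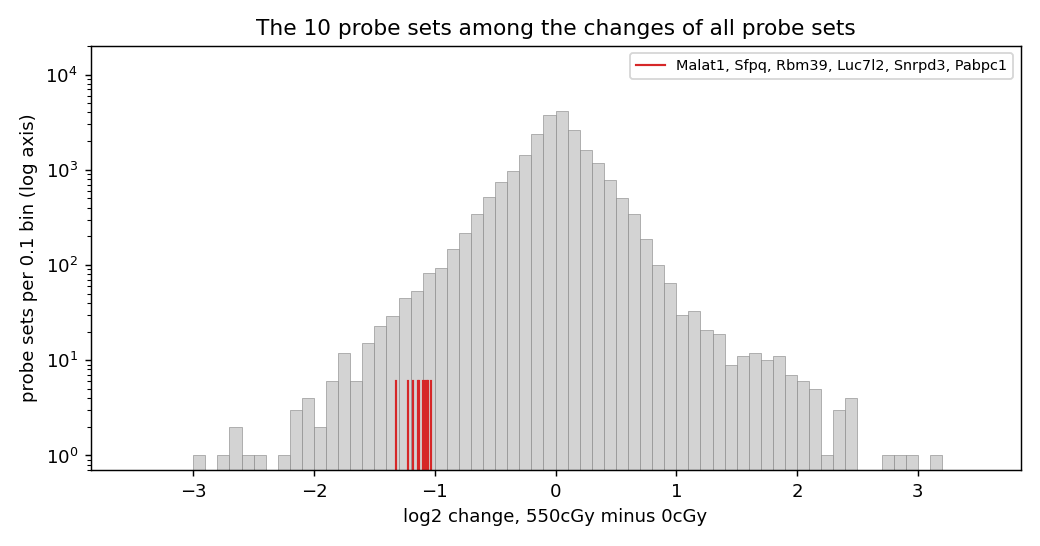
Histogram of the log2 change (550cGy minus 0cGy) of all 22626 probe sets in bins of 0.1, with a log vertical axis. Red lines mark the 10 probe sets of Malat1, Sfpq, Rbm39, Luc7l2, Snrpd3 and Pabpc1, which lie between -1.32 and -1.03.

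Malat1 (gene ID 72289, chromosome 19, bases 5795690 to 5802672 in GRCm38.p6) is a long noncoding RNA that stays in the nucleus. Its probe set 1438403_s_at read a lowest value of 11.79, a median of 11.94 and a highest value of 12.03 on the control arrays (log2). On the irradiated arrays the lowest value was 10.51, the median 10.90 and the highest 11.21. The groups did not overlap, and the controls lay closely together, with replicate 5 lowest, while irradiated replicate 1 was the lowest array and irradiated replicate 2 the highest of the irradiated ones. The mean went from 11.94 ± 0.09 to 10.88 ± 0.25 (SD, 6 arrays each), which is -1.06 as a log2 change (SE 0.11). That SE was the smallest of the 10 probe sets, for which it ranged up to 0.28. In the naming of such probe sets, the ending _s_at marks probes shared between transcripts, so the signal may not come from a single Malat1 transcript.

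Sfpq (gene ID 71514, chromosome 4, bases 127020716 to 127051101) encodes a splicing factor rich in proline and glutamine that helps build paraspeckles. Its probe set 1436898_at read 9.66, 9.88 and 10.26 (lowest, median and highest, log2) on the control arrays. The irradiated arrays read 8.37, 8.97 and 9.34 in the same order. The groups did not overlap. Irradiated replicates 1 and 2 were lowest at 8.44 and 8.37, and control replicate 1 was highest at 10.26. The log2 change was -1.03 (SE 0.17), from 9.90 ± 0.21 to 8.86 ± 0.38 (SD, n = 6 per group).

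Rbm39 (gene ID 170791, chromosome 2, bases 156147239 to 156180238) encodes an SR-related splicing factor and transcriptional coactivator, known as the target of the aryl sulfonamide degraders. Its 5 probe sets had log2 changes of -1.32 (1446147_at, SE 0.25), -1.14 (1438398_at, SE 0.17), -1.22 (1446148_x_at, SE 0.21), -1.18 (1442744_at, SE 0.24) and -1.08 (1442745_x_at, SE 0.24). These changes span 0.24, which is less than the SE of the largest of them. In probe set 1446147_at the control arrays read 9.79, 10.10 and 10.33 (lowest, median and highest, log2) and the irradiated arrays 7.66, 8.82 and 9.39. Irradiated replicate 2 was the lowest array there and in 1446148_x_at, whereas irradiated replicate 1 was the lowest in the other 3 probe sets. In 1438398_at the controls read 9.60, 9.87 and 10.48 and the irradiated arrays 8.16, 8.88 and 9.12. The groups overlapped only in 1442744_at, where control replicate 2 read 8.93 and irradiated replicate 5 read 8.95. The ending _x_at marks probes that can also match other sequences. Each _x_at probe set followed the _at probe set numbered just before it, with a correlation of 0.98 for the 1442744 pair and 0.97 for the 1446147 pair, so the 5 probe sets are not 5 separate measurements.

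Luc7l2 (gene ID 192196, chromosome 6, bases 38551334 to 38609953) encodes a homolog of a yeast protein of the U1 small nuclear ribonucleoprotein, which recognizes the start of introns. Its probe set 1436766_at read 8.75, 8.91 and 9.25 (lowest, median and highest, log2) on the control arrays and 7.42, 7.75 and 8.33 on the irradiated arrays. The groups did not overlap. The irradiated arrays fell into a low trio, replicates 1 to 3 at 7.42, 7.46 and 7.44, and a higher trio, replicates 4 to 6 at 8.04, 8.33 and 8.33. The log2 change was -1.10 (SE 0.18), from 8.94 ± 0.17 to 7.84 ± 0.44 (SD, n = 6 per group).

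Snrpd3 (gene ID 67332, chromosome 10, bases 75518042 to 75535440) encodes a Sm protein of the ring that binds small nuclear RNA. Its probe set 1422885_at read 8.15, 8.55 and 9.59 (lowest, median and highest, log2) on the control arrays and 6.67, 7.76 and 8.15 on the irradiated arrays. The groups overlapped slightly at 8.15, where irradiated replicate 4 lay 0.004 above control replicate 2. Control replicate 5 was highest at 9.59 and irradiated replicate 3 lowest at 6.67. The log2 change was -1.06, with the largest SE of the 10 probe sets (0.28), from 8.71 ± 0.51 to 7.64 ± 0.56 (SD, n = 6 per group). Without control replicate 4 the change was -1.01 and without irradiated replicate 1 it was -1.02, and in each case the probe set was no longer called.

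Pabpc1 (gene ID 18458, chromosome 15, bases 36595658 to 36609581) encodes the main cytoplasmic poly(A)-binding protein. Its probe set 1453840_at read 9.64, 9.91 and 10.67 (lowest, median and highest, log2) on the control arrays and 8.54, 8.94 and 9.28 on the irradiated arrays. The groups did not overlap, and control replicates 1 and 3 stood above the other controls at 10.67 and 10.45. The log2 change was -1.13 (SE 0.19), from 10.06 ± 0.41 to 8.93 ± 0.28 (SD, n = 6 per group). Pabpc1 was the only one of the 6 genes whose control arrays spread more than its irradiated arrays. In the other 9 probe sets the irradiated SD was the larger one, by 1.10 to 2.87 times, as it was in 45.1% of all probe sets and in 42.0% of the 276 lower probe sets of the authors' table.

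**Figure D2:**
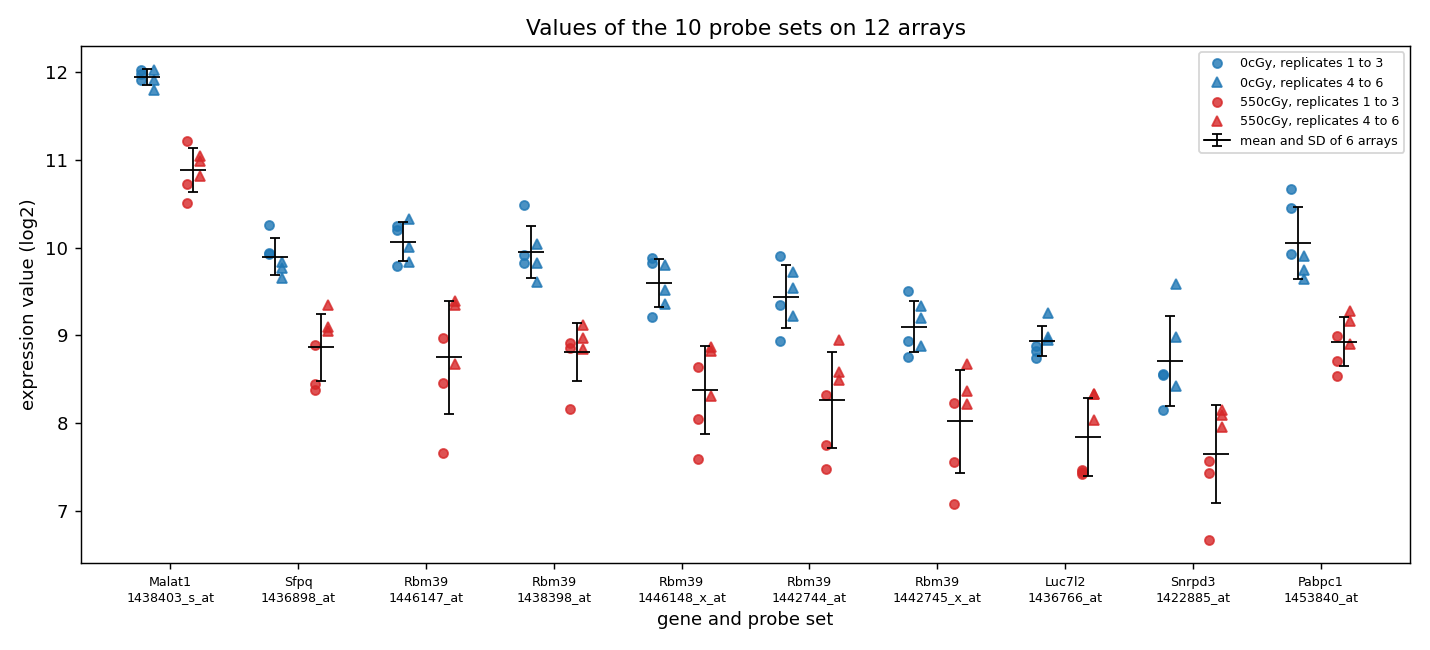
Log2 expression values of the 10 probe sets on each array, blue for 0cGy and red for 550cGy, with circles for replicates 1 to 3 and triangles for replicates 4 to 6. Black marks give the mean and SD of the 6 arrays of a group; the groups touch or overlap only in Rbm39 1442744_at and Snrpd3.

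The fall was larger in replicates 1 to 3 than in replicates 4 to 6 for each of these genes, but the difference did not pass the test over all probe sets. The labels name no batch, and these sets of replicates were taken from an earlier look at the same arrays, where they separated along a principal component. Replicates 1 to 3 gave the 10 probe sets a median log2 change of -1.46 and replicates 4 to 6 one of -0.84, against medians of 0.02 and -0.0011 over all probe sets. Within each set, all 3 irradiated arrays lay below all 3 control arrays in 10 of 10 probe sets, as in 12.9% of all probe sets in the first set and 14.5% in the second. The rule had used the mean of both sets, so this agreement is not independent of it.

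The difference between the sets is not what the rule used, and it was fitted as an interaction in limma. The sets themselves were taken from these arrays, so the p-values below describe the split and do not test one fixed beforehand. The difference was positive, meaning a smaller fall in replicates 4 to 6, in 10 of 10 probe sets, of which those of Rbm39 are not separate measurements. Its median was 0.69, against -0.02 over all probe sets, of which 53.0% were below 0. That median takes rising and falling probe sets together. The quartiles of the change over all probe sets were -0.21 and 0.23 in replicates 1 to 3. They were -0.16 and 0.16 in replicates 4 to 6, so changes were wider in the first set in general. The other lower probe sets of the authors' table were not compared in this way, so the difference is not shown to be particular to these genes. The number called at an adjusted p under 0.05 was 0 of 10, and 0.133% of all probe sets were called. At an unadjusted p under 0.05 there were 3 of 10, against 11.4% of all probe sets. Those 3 were Pabpc1, Sfpq and Luc7l2. Pabpc1 changed by -1.60 in the first set and -0.65 in the second (log2), a difference of 0.95 (SE 0.27, limma adjusted p = 0.213). Sfpq changed by -1.47 and -0.59, a difference of 0.88 (SE 0.22, limma adjusted p = 0.152, or 0.0478 without irradiated replicate 3, the lowest value of a range up to 0.317 over the alternatives). For Luc7l2 the changes were -1.37 and -0.83, a difference of 0.54 (SE 0.16, limma adjusted p = 0.236).

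Malat1 differed least between the sets. Its log2 changes were -1.16 (replicates 1 to 3) and -0.96 (replicates 4 to 6), a difference of 0.20 (SE 0.22, limma adjusted p = 0.793). The Snrpd3 difference was 0.27 (SE 0.41, limma adjusted p = 0.860), and it turned to -0.02 without control replicate 6 and to -0.01 without irradiated replicate 3. In the Rbm39 probe sets the differences were 0.59 to 0.80, with SEs of 0.32 to 0.43. By group, the irradiated mean was higher in replicates 4 to 6 in 10 of 10 probe sets, which was so for 48.4% of all probe sets, and the control mean was higher in 4 of 10. The control mean of Pabpc1 was 10.35 in the first set and 9.76 in the second, and its irradiated mean 8.75 and 9.11. The control mean of Snrpd3 went the other way, from 8.42 in the first set to a value 0.58 higher in the second. In Luc7l2 the irradiated mean was 7.44 and 8.23, and the control mean 8.81 and 9.06.

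**Figure D3:**
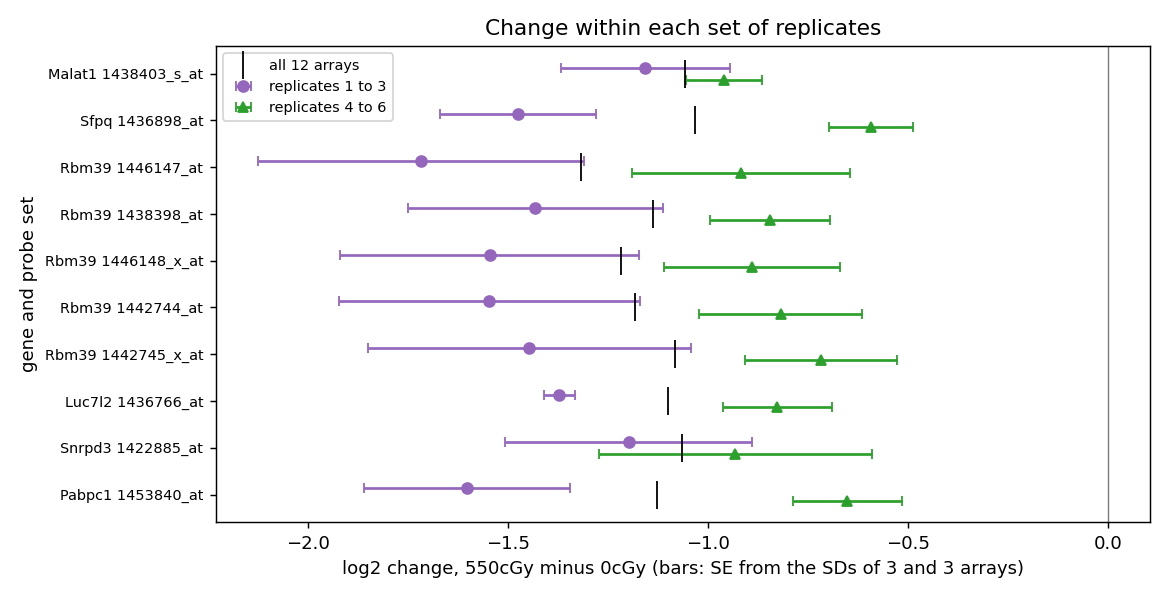
Log2 change (550cGy minus 0cGy) of each probe set in replicates 1 to 3 (purple circles) and in replicates 4 to 6 (green triangles), with bars for the SE from the SDs of the 3 and 3 arrays and black ticks for the change over all 12 arrays. In all 10 probe sets the purple circle lies further below 0 than the green triangle, with the widest distance of 0.95 in Pabpc1 and the narrowest of 0.20 in Malat1.

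With the group means removed, the genes still varied together in part from array to array. Over the 12 arrays, the 45 pairs of probe sets had a mean Pearson's r of 0.46 and a mean Spearman's rho of 0.48, and 42 of the 45 r values were above 0. The 35 pairs of different genes, which count Rbm39 5 times, had a mean r of 0.39. With the brightest probe set of each gene alone, 15 pairs had a mean r of 0.32 and a median of 0.21, and all 37950 pairs of the lower probe sets in the authors' table had a mean of 0.19 and a median of 0.22. Part of the joint variation lay between the replicate sets, since the mean r of the 45 pairs was 0.23 once the mean of each group and set was removed, and that of the 35 pairs of different genes was 0.13. Without irradiated replicate 1 these means, with group means removed, were 0.33 and 0.24. The points share arrays and their normalization, so these values describe the arrays and carry no p.

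Among different genes, Sfpq and Rbm39 1442745_x_at had the highest r, at 0.74. Sfpq reached 0.65 to 0.74 with all 5 Rbm39 probe sets and 0.66 with Pabpc1, which were 0.42 to 0.63 and 0.35 within group and replicate set. Luc7l2 reached 0.73 with Rbm39 1442744_at and 0.59 with Snrpd3, but once the means of group and replicate set were removed these were 0.35 and -0.39. Malat1 had r of 0.68 to Rbm39 1438398_at, 0.34 and 0.38 to the 1442744 pair and -0.23 and -0.12 to the 1446147 pair. Without irradiated replicate 1 the first 3 of these were 0.37, -0.11 and -0.20. Within group and replicate set, the r of Malat1 to Rbm39 1438398_at was 0.64. Within Rbm39 itself, 1438398_at and 1446147_at had an r of only 0.23, although both were lower after irradiation. Snrpd3 had r between -0.05 and 0.28 to every probe set other than Luc7l2. Within group and replicate set these values ran from -0.50 with Rbm39 1446147_at to 0.46 with Pabpc1.

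**Figure D4:**
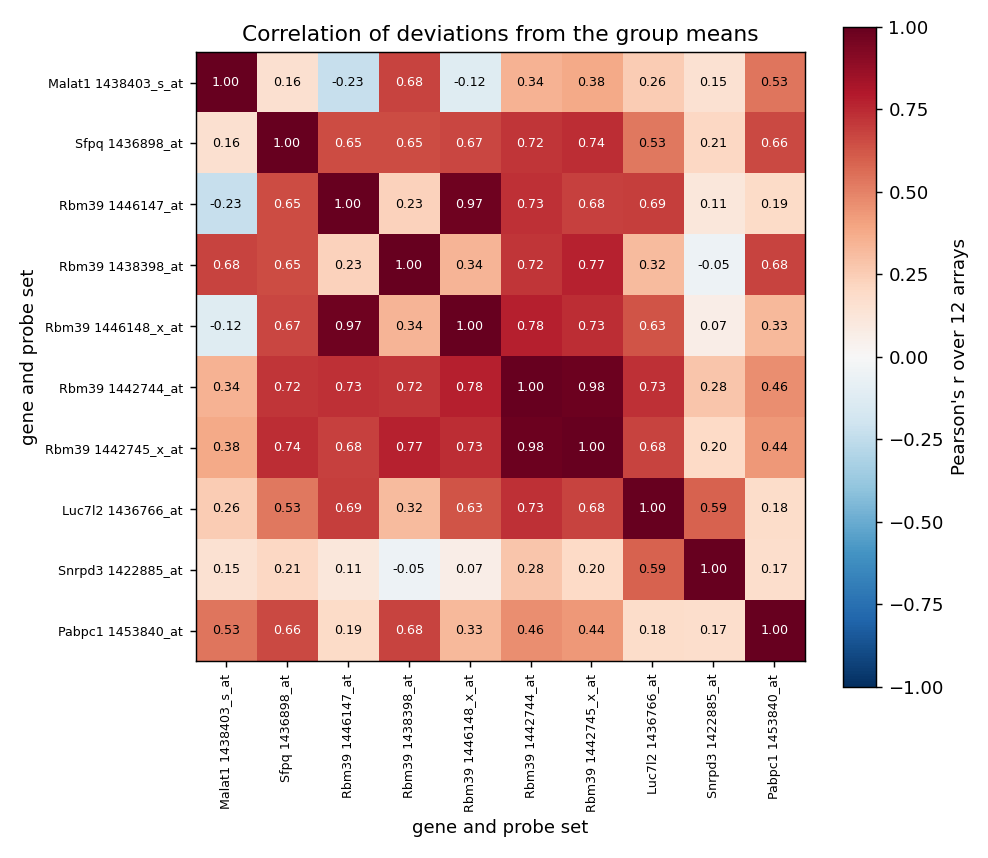
Pearson's r over 12 arrays between the deviations of 2 probe sets from their group means, with red for positive and blue for negative values. The 2 pairs of Rbm39 probe sets that are numbered next to each other reach 0.97 and 0.98, and Malat1 and Rbm39 1446147_at give the lowest value, -0.23.

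The genes whose array-to-array pattern was most like that of each of the 6 were sought among the 325 genes named alone in the authors' table, by the highest r of deviations from group means over 12 arrays. They were picked for a high r, so no p is given. For Sfpq they were Maff, a small Maf transcription factor (r = 0.96, rho = 0.94), and Nr4a1, an orphan nuclear receptor of the immediate early genes (r = 0.90, rho = 0.92). Both had lower means after irradiation, with log2 changes of -1.11 and -1.52, and r within group and replicate set was 0.88 and 0.80. For Luc7l2 they were Skil, a repressor of TGF-beta signalling (r = 0.94), and Rel, an NF-kB subunit (r = 0.92). These r values were 0.41 and 0.24 when the means of group and replicate set were removed, so the likeness to Luc7l2 lay largely between the sets. For Rbm39 1446147_at they were Tsc22d1, a leucine zipper protein (r = 0.89), and Zc3h12a, an RNase that degrades inflammatory transcripts (r = 0.88).

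For Pabpc1 the nearest genes were Nr4a2, an orphan nuclear receptor (r = 0.83, rho = 0.63), and Sik1, a salt-inducible kinase (r = 0.82, rho = 0.83), at 0.58 and 0.47 within group and replicate set. For Malat1 they were Ccdc88a, an actin-binding protein (r = 0.80), and Fnbp1, a membrane-curving protein (r = 0.80). Leaving out the 2 arrays farthest from the median of Malat1 gave 0.58 and 0.85, and leaving out irradiated replicate 1 gave 0.65 and 0.68. For Snrpd3 they were Emc9, of the endoplasmic reticulum membrane complex (r = 0.87), and Add2, an adducin of the red cell membrane skeleton (r = 0.84). Unlike Snrpd3, Emc9 and Add2 had higher means after irradiation, with log2 changes of 1.12 and 1.24. The genes nearest to the other 5 all had lower means after irradiation.

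Of 177 genes in 7 lists of RNA-related genes, 9 were in the authors' table. All 9 had lower means and 7 were called lower, as were 5.47% of all probe sets. In that table, 276 of the 451 measured probe sets (61.2%) were lower. Of the 9, 6 are the genes above, which were chosen from that table. The lists were also drawn up with earlier results of these data known, so nothing is read from these counts. The others of the 9 are Btg1, Btg2 and Meg3. Btg1, an antiproliferative protein that recruits the deadenylase complex to messenger RNA, went from 10.83 ± 0.29 to 9.59 ± 0.30 (log2, SD, 6 arrays each), so the change was -1.24 (SE 0.16). Its relative Btg2 had a log2 change of -1.12 (SE 0.41) and Meg3, an imprinted nuclear long noncoding RNA, -1.02 (SE 0.35), and neither was called. By list, the table held 2 of 11 nuclear long noncoding RNAs (Malat1 and Meg3), 1 of 13 paraspeckle proteins (Sfpq), 2 of 30 SR and SR-related factors (Rbm39 and Luc7l2), 1 of 34 Sm, LSm and ribonucleoprotein core proteins (Snrpd3) and 3 of 29 genes of poly(A) binding and deadenylation (Pabpc1, Btg1 and Btg2). It held 0 of 25 hnRNP genes and 0 of 36 regulators of messenger RNA stability and translation. The other genes of these lists have no named probe set here, so their values are unknown and not shown to be steady.

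Markers of red cell precursors moved in the other direction on the same arrays. All 12 of 12 listed erythroid genes were in the table with higher means. By the brightest probe set of each gene 9 were called higher, as were 1329 of all 22626 probe sets. For Tfrc and Ank1, which are not among the 9, dimmer probe sets were called higher. The marker lists were drawn up with earlier results of these data known, and the table holds only changed probe sets. Nothing is therefore read from these counts or from the summed signals below, whose genes were in the table because they had changed. Among the listed genes, Gata1, an erythroid transcription factor, was 3.06-fold higher and Cpox, an enzyme of heme synthesis, 2.62-fold higher. Hbb-b2, a beta-globin gene whose close copies its probes may also read, was 3.04-fold higher. The summed signal of the erythroid genes on the linear scale was 1806 to 4574 on the control arrays and 5430 to 14230 on the irradiated arrays. Of the mast cell and basophil markers 2 of 6 (Il1rl1 and Fcer1a) were in the table and higher. The summed signals of these 2 alone were 76.7 to 185.8 on the control arrays and 199.6 to 375.1 on the irradiated arrays. The other listed mast cell and basophil markers have no named probe set here. The table held 0 of 39 listed markers of neutrophils, B, T and NK lymphocytes, macrophages, dendritic cells, stroma and endothelium, and neither Kit nor Ly6a, so the sorted identity of the cells could not be checked by name. The part of the erythroid and mast cell markers in the lower levels of Malat1 and the RNA-binding protein genes was not tested. Across all probe sets 1329 were called higher and 1238 lower, or 51.8% higher, and 1765 and 1081 after every array was centred on its median, or 62.0% higher. All 10 probe sets of the 6 genes were called lower on either scale. Without irradiated replicate 1 the fit on the deposited values called 740 higher and 773 lower, and without control replicate 1, irradiated replicate 5 or irradiated replicate 6 it called 837, 830 and 769 higher.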

How the data were processed

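The deposited values are log2 expression values for each probe set on 12 arrays, hybridised with biotin-labelled RNA (Ovation kit, per the labels' protocols). The submitters' processing notes name Partek. How background and scale were corrected is not given in the sources used here. Array medians ranged from 6.94 to 7.01. The authors' deposited table gives, per the file headers, the gene, the linear ratio (550cGy over 0cGy), its unadjusted p-value, a signed fold, and the F and sum of squares scores. Its ratios of the 10 probe sets differed from those of the log2 values by at most 9.66e-06 on the log2 scale. Only that table names genes: 436 probe sets name 1 gene, and a RefSeq gene table (GRCm38.p6) matched 425 of them by gene ID and gave their symbols.

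All probe sets were fitted with limma 3.58.1 in R 4.3.3 (lmFit, eBayes, default prior, no filter), with p adjusted by the Benjamini-Hochberg method and called under 0.05. A second fit held dose, replicate set (1 to 3 or 4 to 6) and their interaction. Both were tested on simulated data of 22626 probe sets with 100 changed by 1 and 100 by 2 on the log2 scale. The dose comparison recovered 73 and 99 of them with 7 false calls, and the interaction 28 and 74 with 4. The number of arrays limits precision, and the median SE of a change was 0.132.

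The genes, the lists and the replicate sets were chosen with earlier results of these data known. Named genes are the 6 genes, the 2 genes most like each in array-to-array deviations, list members in the authors' table, and up to 3 per cell type list by the smallest limma p. Where a gene has several probe sets, the one with the highest mean stands for it in lists. The alternatives tried were quantile normalization, median subtraction, dropping the dimmest 40% of probe sets, array weights, a trended and robust prior, a replicate block, the replicate set as a term or alone, an analysis of variance and leaving out each array. Committed progenitors, which the design text names, were not analysed here. Figures used matplotlib 3.10.9.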

Additional observations from a re-analysis of the deposited data

Results flagged for a closer look

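In Rbm39 probe set 1438398_at, irradiated replicate 1 read 8.16 on the log2 scale, apart from the other irradiated arrays at 8.84 to 9.12, a gap that passed Dixon's limit for 6 samples. The gap was the only one among 20 groups of 6 arrays examined, where chance gives about 1 in 20. The log2 change of this probe set is -1.14 with that array and -1.01 without it.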

How the results depend on the processing

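The 10 log2 changes kept their direction in all 210 refits under the alternatives, ranging from -1.72 to -0.59, and 6 of the 210 lost the call. Those were Snrpd3 in 4 (without control replicate 4 or irradiated replicate 1, and in either replicate set alone), Rbm39 1442745_x_at in replicates 1 to 3 and Rbm39 1446147_at in replicates 4 to 6. The number of these probe sets called was 9 to 10 when 1 array was left out and 9 by analysis of variance. Over all probe sets the counts of higher and lower calls were 2099 and 1833 with the replicate set as a term, 539 and 601 in replicates 1 to 3 alone, 720 and 738 in replicates 4 to 6 alone, and 862 and 804 by analysis of variance. Leaving out 1 array gave 740 to 1531 higher and 773 to 1303 lower calls. A difference between replicate sets was called in 30 probe sets, in 96 with the trended and robust prior, in 47 with array weights, and in 4 (without control replicate 4 or irradiated replicate 4 or 6) to 129 (without irradiated replicate 3) when 1 array was left out. Of the 10 probe sets, 0 to 1 were called for it, Sfpq being the one, without irradiated replicate 3. The Snrpd3 difference was -0.022 without control replicate 6 and -0.0085 without irradiated replicate 3. The mean r within groups was 0.33 to 0.56 when 1 array was left out, 0.44 after quantile normalization, 0.43 after median subtraction and 0.23 within group and replicate set. The cause of these shifts was not tested. Same-numbered arrays of the groups correlated in their deviations at 0.01 to 0.29, which did not meet the rule for pairing, and 3 of 12 arrays correlated best with their own number. With a replicate block 1451 probe sets were called higher and 1350 lower, and all 10 kept the call.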
